A study of Canis lupus familiaris with 6 samples.

Results

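PAX2, PAX8, HNF4A, EMX2, LHX1, GATA3, TFAP2B and FOXI1 are transcription factors that lay down or maintain the parts of the kidney tubule. They were followed here in RasV12 cells that had grown alone or among normal neighbours. The members were the non-control probes whose gene name on the array was one of these 8 symbols. They were 8 of the 43603 probes and covered 7 of the 8 genes, since no probe carried the name of PAX2 and none matched it by transcript accession or by description. PAX8 had 2 probes and each of the other 6 genes had 1.

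MDCK (Madin-Darby canine kidney) cells are an epithelial line of the dog. MDCK-pTR GFP-RasV12 cells, called RasV12 cells below, are MDCK cells that make GFP-tagged RasV12, a constitutively active Ras, when tetracycline is added. One group was RasV12 cells cultured alone (3 samples) and the other was RasV12 cells from a mixed culture with MDCK cells (3 samples). All 6 samples had 24 h of tetracycline on collagen-coated dishes and were sorted for GFP before RNA extraction, and each was hybridised to 1 array in 1 colour. The controls therefore also carried active RasV12, and cells without it were not measured. The methods and the design give 10 MDCK cells to 1 RasV12 cell. For mixed replicate 2 the source name states 100 to 1 instead. The titles and source names give cells without the β-catenin mutant that the extraction text names. Whether the line is 1 clone, and whether replicates came from separate cultures, is not given in the sources used here, so the p-values measure the spread between these samples, which may be technical. Each slide held the arrays of a single group, so that an effect of the slide and an effect of the neighbours cannot be told apart.

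PAX2 and PAX8 are paired-box factors that specify the nephric lineage, and LHX1 acts beside them in the intermediate mesoderm. EMX2 and GATA3 belong to the nephric duct and the ureteric bud, the outgrowth that forms the collecting ducts. HNF4A is a nuclear receptor of the proximal tubule, TFAP2B an AP-2 factor of the distal nephron and FOXI1 a forkhead factor of the acid-base transporting intercalated cells. MDCK cells are commonly described as resembling the distal tubule and the collecting duct.

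Each probe is an oligonucleotide of 60 bases. The probes that could be tested are shown because every difference given for these genes rests on 1 such stretch of the transcript. The EMX2 probe closes with a stop codon, in capitals. For TFAP2B 30 bases are shown, starting at base 24 of the probe, with the letters AATAAA in capitals. The probes of PAX8, GATA3 and FOXI1 have no capitals.
EMX2: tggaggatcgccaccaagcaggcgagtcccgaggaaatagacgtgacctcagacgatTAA
TFAP2B: gtaatactgataAATAAAagaaaaccatga
PAX8 probe 1: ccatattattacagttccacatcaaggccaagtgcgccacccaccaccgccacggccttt
GATA3: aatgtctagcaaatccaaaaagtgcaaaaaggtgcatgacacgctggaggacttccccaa
FOXI1: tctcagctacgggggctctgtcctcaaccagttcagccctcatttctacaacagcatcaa

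By the coordinates in the scanner files, on the canFam3 build, the EMX2 probe lies on the plus strand at chr28:28008541-28008600 and the TFAP2B probe on the plus strand at chr12:18570126-18570185. PAX8 probe 1 lies on the minus strand at chr17:37307170-37307229, GATA3 on the minus strand at chr2:28070161-28070220 and FOXI1 on the minus strand at chr4:41762059-41762118. The files pair each probe with a transcript and name no exon. The EMX2 probe reads as an open frame up to its final codon. The whole TFAP2B probe has a stop codon in each of its 3 frames, and AATAAA, the usual signal for polyadenylation, starts at base 36. These letters stand in 8.67% of the 43603 probes as written and in 11.4% on either strand, and a match describes the probe only.

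Detection came first. A probe was counted as detected on an array where the scanner software marked it well above background, and between 60.8% and 66.4% of all probes were so on an array. The dimmest probe marked in this way had an intensity of 9.15 to 14.6, depending on the array. Precision is limited by having 3 arrays a group. PAX8 probe 1, GATA3, TFAP2B and FOXI1 were detected on all 6 arrays. EMX2 was detected on 4 arrays, HNF4A and PAX8 probe 2 on 1 each, and LHX1 on 0. No member was saturated. RasV12 cells of both cultures thus gave signal for factors of the nephric lineage, the duct and the distal nephron, while HNF4A and LHX1 were at or near background. FOXI1, the factor of the intercalated cell, was detected but dim, at 24.6 to 39.9.

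**Figure D1:**
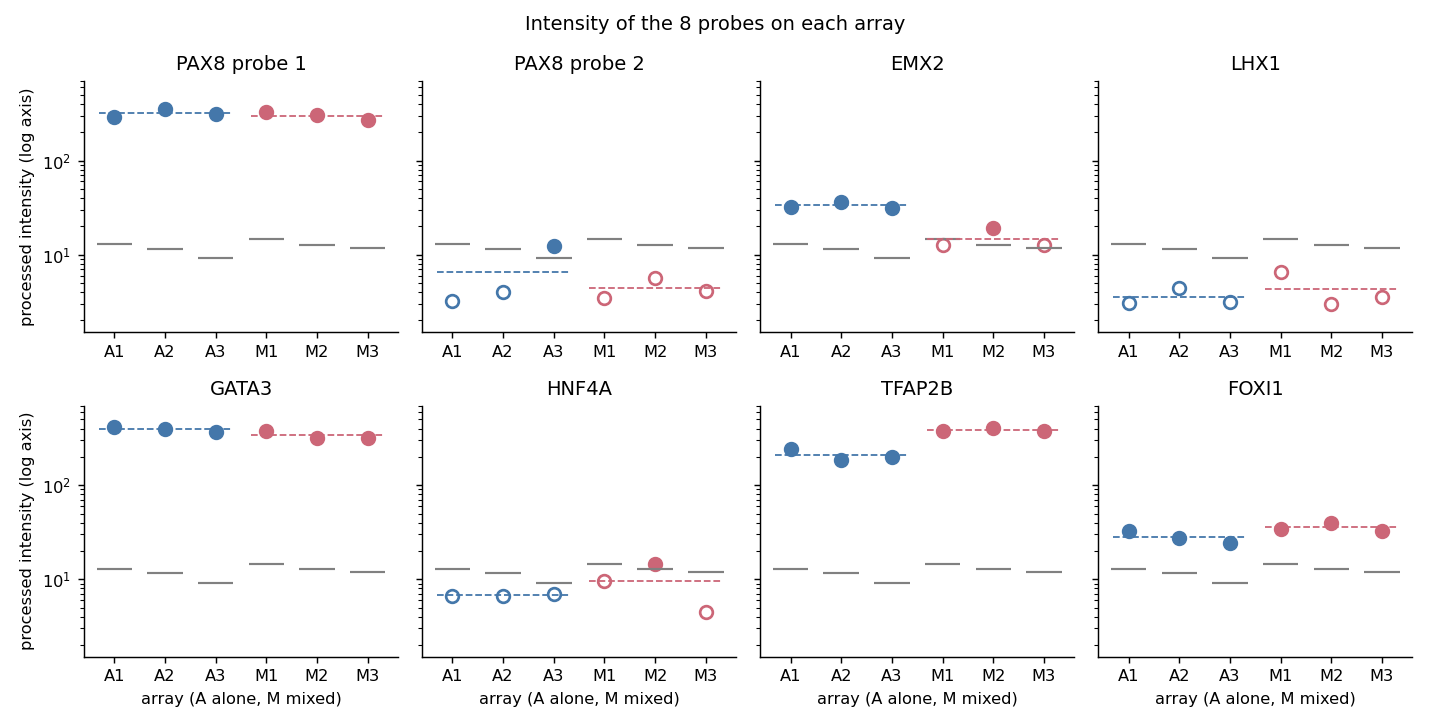
Processed intensity (log axis) of the 8 member probes on the 3 arrays of RasV12 cells alone (A1 to A3, blue) and the 3 arrays from mixed culture (M1 to M3, red). Filled points were well above background, open points were not, grey ticks give the lowest intensity well above background on that array, and dashed lines the group means; TFAP2B sits higher in all 3 mixed samples and EMX2 lower.

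Differences between the cultures were tested at probes detected on all arrays of at least 1 group. This left 26535 probes, 5 of them members: 1 each for PAX8, EMX2, GATA3, TFAP2B and FOXI1. Of the 5, TFAP2B was higher and EMX2 lower in mixed culture at an adjusted p under 0.05 (limma, two-sided), and PAX8, GATA3 and FOXI1 were not called. Over all tested probes 11.2% were called, 5.51% higher and 5.7% lower. That near-even split depended on the scaling. Quantile normalization gave 1448 higher and 1527 lower, while scaling to the spike-in probes gave 952 calls, 282 higher and 670 lower. Samples of the 2 groups lay fully apart for 3 of the 5 members (TFAP2B, EMX2 and FOXI1), against 37.2% of all tested probes. With so few members nothing is read from these shares. In bulk RNA, a change in the number of cells that express a gene cannot be told apart from a change in RNA per cell.

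**Figure D2:**
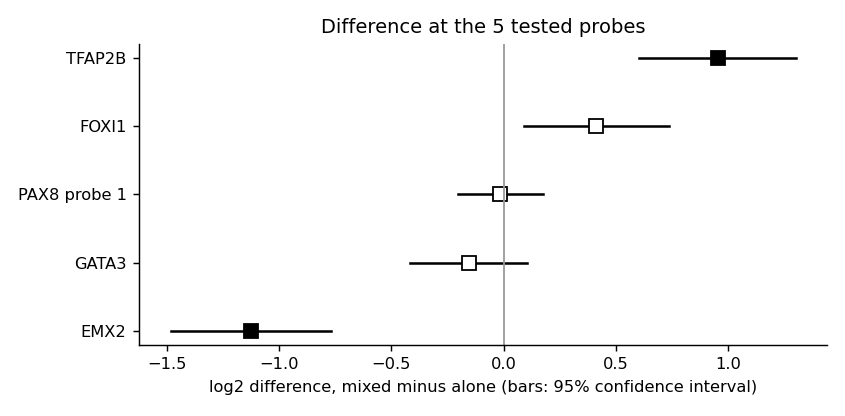
Log2 difference, mixed minus alone, of the 5 tested member probes with 95% confidence intervals from limma (3 arrays a group). Filled squares were called at an adjusted p under 0.05: TFAP2B at 0.95 and EMX2 at -1.13; the intervals of GATA3 and PAX8 include 0, and that of FOXI1 does not although its adjusted p was 0.0951.

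The paired-box gene PAX8 showed signal of the same order in both cultures. Probe 1 had intensities of 291, 350 and 310 in RasV12 cells alone and of 327, 303 and 269 in mixed culture. Mixed replicates 1 and 2 lay within the range of the cells alone and mixed replicate 3 below it. On the scaled log2 values the difference was -0.01 (SE 0.08, 95% confidence interval -0.20 to 0.18, adjusted p = 0.919), so a change of either sign within that interval cannot be told from none. The sign turned, to 0.0099, 0.0031 and 0.0235, without alone replicate 2, mixed replicate 2 and mixed replicate 3.

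PAX8 probe 2 gave another picture of detection. It lies on the same strand, 4151 bases further along the direction of transcription, at chr17:37302959-37303018, and the files pair it with another transcript. Its intensities were 3.18, 3.99 and 12.4 in RasV12 cells alone and 3.45, 5.65 and 4.12 in mixed culture. Only alone replicate 3 was well above background, so this probe was not tested. The 153 negative control spots had medians of 2.26 to 3.51 on the arrays. What part of the PAX8 transcript each probe reads in these cells was not tested.

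EMX2, a homeobox factor of the ureteric bud, was lower in mixed culture. Its intensity was 32.4, 36.5 and 31.1 in RasV12 cells alone and 12.7, 19.1 and 12.7 in mixed culture. Every mixed sample lay below every sample of the cells alone, and within mixed culture replicate 2 stood above the other samples. The means were 33.3 ± 2.79 and 14.8 ± 3.72 (SD, n = 3 each). The log2 difference was -1.13 (SE 0.15, 95% confidence interval -1.48 to -0.77, adjusted p = 0.0160), a fitted 2.18-fold.

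The mixed values of EMX2 were close to the floor of the array. It was detected on 3 of 3 arrays of the cells alone and on 1 of 3 mixed arrays, replicate 2. Mixed values under the lowest intensity well above background of their array, which was replicate 1 only, were raised to it. The ratio of EMX2 was then 2.08-fold, higher in RasV12 cells alone, which is a point value and not a lower bound. The scanner's own error for this spot was 12.9% to 30.3% of the intensity. On each array between 0 and 2 of the 153 negative control spots were brighter than EMX2, and the brightest of them reached 17.2 to 36.7. After normexp correction, which adds 50 to every intensity before the logarithm, the difference shrank to -0.24 (adjusted p = 0.0294), and with the spike-in probes as the scale it was -1.29 (adjusted p = 0.0258).

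LHX1, a LIM homeobox factor, had intensities of 3.07, 4.37 and 3.15 in RasV12 cells alone and of 6.47, 2.98 and 3.56 in mixed culture. No array had it well above background, and the ranges overlapped. At this signal a difference was not detectable, and when dim probes were kept the fit gave 0.30 (95% confidence interval -0.45 to 1.05, adjusted p = 0.565).

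GATA3, a zinc-finger factor of the nephric and collecting ducts, was detected throughout. Its intensity was 417, 396 and 370 in RasV12 cells alone and 378, 318 and 319 in mixed culture. Mixed replicates 2 and 3 lay below all samples of the cells alone, while mixed replicate 1 lay among them. The log2 difference was -0.16 (SE 0.11, 95% confidence interval -0.42 to 0.11, adjusted p = 0.375). Scaled to the spike-in probes it was -0.32 (adjusted p = 0.116), and it was not called under any of the 14 alternative settings.

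Genes that act with these duct factors were read from a list of 12 signalling and adhesion genes of the nephric duct. Of its 8 tested probes 3 were lower and 0 higher, against 11.2% of all tested probes called and 5.7% called lower. The median difference of the list was -0.37, against -0.0031 over all tested probes. They were 2 of the 3 probes of NPNT, an integrin ligand of the duct matrix (-0.55 and -0.42, adjusted p = 0.0472 and 0.0298), and the probe of WNT7B, a Wnt ligand of the collecting duct (-0.45, adjusted p = 0.0310). The third NPNT probe differed by -0.33 (adjusted p = 0.0677). With the replicate block 0 of the 8 probes were called (adjusted p = 0.0604, 0.0530 and 0.0529 for the 2 NPNT probes and WNT7B), and with spike-in scaling 0 as well, with 5 at an unadjusted p under 0.05 in each fit (limma). RET, the receptor of the ureteric bud, was tested at 1 of its 4 probes, with -0.16 (adjusted p = 0.598). Another RET probe was well above background on 2 arrays of the cells alone and 0 mixed arrays, so it was not tested. Its dim intensities were 27.8, 16.2 and 16.5 alone and 3.91, 6.34 and 6.59 in mixed culture, without overlap. The remaining RET probes were not well above background on any array.

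HNF4A had intensities of 6.63, 6.66 and 6.91 in RasV12 cells alone and of 9.57, 14.6 and 4.53 in mixed culture. It was well above background in mixed replicate 2 only, and the mixed samples lay on both sides of the cells alone. On each array it was brighter than all but 2 to 9 of the 153 negative control spots, so the signal was low but above most of them. When dim probes were kept the difference was 0.42 (95% confidence interval -0.52 to 1.36, adjusted p = 0.521). Of 24 proximal tubule genes, 9 were detected on all 6 arrays and 6 on none. Among their 14 tested probes 1 was higher and 0 lower, against 11.2% of all tested probes called. The called probe read PCK1, an enzyme of gluconeogenesis, at 1.09 (adjusted p = 0.0410). The other tested probe of PCK1 differed by 0.80 (adjusted p = 0.0752). With the replicate block PCK1 was not called (adjusted p = 0.0617), while both probes of CUBN, an endocytic receptor, were called higher (0.43 and 0.46, adjusted p = 0.0461 and 0.0381) and CYP27B1, which activates vitamin D, was called lower (-0.53, adjusted p = 0.0353). With spike-in scaling 0 of the 14 probes were called, with 3 at an unadjusted p under 0.05 (limma). HNF4G, the paralogue of HNF4A, was detected on all 6 arrays and differed by 0.45 (SE 0.08, adjusted p = 0.0251), higher in mixed culture.

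TFAP2B was the member that was higher in mixed culture. Its intensity was 244, 185 and 198 in RasV12 cells alone and 376, 401 and 374 in mixed culture. The mixed samples lay close together and all above the cells alone, among which replicate 1 was the highest. The means were 209 ± 31.2 and 384 ± 14.9 (SD, n = 3 each). The log2 difference was 0.95 (SE 0.15, 95% confidence interval 0.60 to 1.30, adjusted p = 0.0195), or 1.94-fold. The exact permutation test over the 6 arrays gave p = 0.1 (two-sided) for TFAP2B, EMX2 and FOXI1 each, the smallest p that 3 against 3 allow.

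Of the AP-2 family, TFAP2C was the only other member tested. It differed by -0.48 (adjusted p = 0.0636) and was called lower with the replicate block, so its sign was opposite to that of TFAP2B. Of 18 genes of the loop of Henle and the distal tubule, 5 were detected on all 6 arrays and 7 on none. None of their 7 tested probes was called, against 11.2% of all tested probes. Among the 7, 1 had an unadjusted p under 0.05 (limma), and the median difference was 0.13. SLC12A1, the loop's sodium-potassium-chloride transporter, differed by 0.17 (adjusted p = 0.340), while SLC12A3, the transporter of the distal convoluted tubule, was not well above background on any array.

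FOXI1 lay between a call and none. Its intensity was 32.2, 27.5 and 24.6 in RasV12 cells alone and 34.2, 39.9 and 32.6 in mixed culture. The groups did not overlap, but alone replicate 1 and mixed replicate 3 were almost level. The signal was low: the brightest negative control spot of an array reached 17.2 to 36.7, and on some arrays 1 such spot was brighter than FOXI1. The log2 difference was 0.41 (SE 0.13, 95% confidence interval 0.09 to 0.74), with an adjusted p of 0.0951. Without alone replicate 1 it was 0.55 and passed the threshold (adjusted p = 0.0113), in a fit that called 7333 of all 27758 tested probes. Under the other 13 alternative settings the difference was positive and not called. The lowest of these differences, 0.15, came with normexp correction.

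Genes of the intercalated cell were in part undetected. Of 16, 7 were detected on all 6 arrays and 8 on none, among them SLC4A1 and SLC26A4, the anion exchangers of the acid and base secreting types. Of their 8 tested probes 1 was called, against 11.2% of all tested probes. The called probe read CA2, carbonic anhydrase 2 (0.36, adjusted p = 0.0430, against 0.30 and 0.0554 at the other CA2 probe). The CA2 call was lost with the replicate block (adjusted p = 0.0508). Of the subunits of the proton pump, ATP6V1B1 differed by -0.06 (adjusted p = 0.604) and ATP6V0A4 by 0.47 (adjusted p = 0.147, limma). Among the 8 tested probes of the intercalated cell 6 were positive and 2 negative, with a median difference of 0.20. Of 9 genes of the principal cell, the neighbouring cell type of the collecting duct, 1 of 7 tested probes was called, a probe of the water channel AQP2 (0.36, adjusted p = 0.0247). That probe had intensities of 75.1 to 101, while the other AQP2 probes, at 2.46 to 7.02, were not well above background on any array. With spike-in scaling 0 probes of both lists were called or had an unadjusted p under 0.05 (limma).

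**Figure D3:**
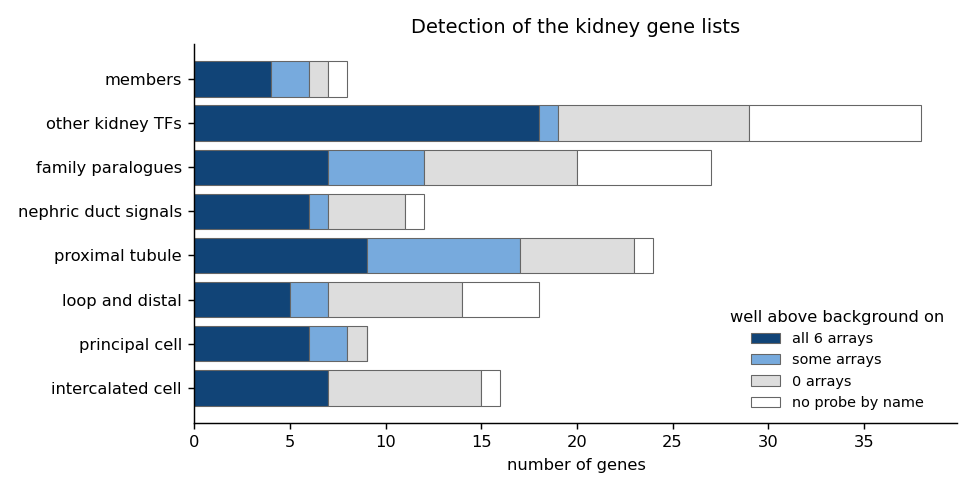
Number of genes of each list that were well above background on all 6 arrays, on some, or on 0 arrays, by the best probe of the gene, and that had no probe by name. Of the 8 members 4 were detected on all arrays, 2 on some and 1 on none; of the 38 other kidney transcription factors (TFs) 18 were detected on all and 10 on none.

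The members were also set beside 38 other transcription factors of kidney development, 29 of which had a probe. Of their 27 tested probes 3 were higher and 0 lower, a share close to the 11.2% over all tested probes, and the median difference was 0.15. OSR1, which marks the early intermediate mesoderm, had intensities of 74.1 to 76.3 in RasV12 cells alone and of 116, 237 and 211 in mixed culture. All mixed samples lay above the cells alone, and mixed replicate 1 stood well below the other mixed samples. The difference of OSR1 was 1.33 (SE 0.26, adjusted p = 0.0311). TCF21 differed by 0.51 (adjusted p = 0.0327) at 1 of its 2 probes, and LMX1B by 0.29 (adjusted p = 0.0423). That TCF21 probe was itself dim, at 15.5 to 17.3 alone and 20.1 to 23.9 mixed, and was not called with normexp correction. The other TCF21 probe was not well above background on any array. With the replicate block LMX1B was not called (adjusted p = 0.0611) and a probe of HOXB7 was (0.51, adjusted p = 0.0419). The 6 probes of MECOM, a zinc-finger factor, pointed the other way, from -0.31 to -0.48, with 5 of them at an unadjusted p under 0.05 and adjusted p-values of 0.0667 to 0.166. Without alone replicate 1 all 6 MECOM probes passed the threshold. The list then had 6 higher and 7 lower calls among 28 tested probes, in a fit that called 7333 of all 27758 tested. WT1, SIX2 and EYA1, factors of the nephron progenitors, were not well above background on any array. When the arrays were scaled to the spike-in probes, which moved the median of all probes to -0.17, 0 of these 27 probes were called and 8 had an unadjusted p under 0.05 (limma).

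**Figure D4:**
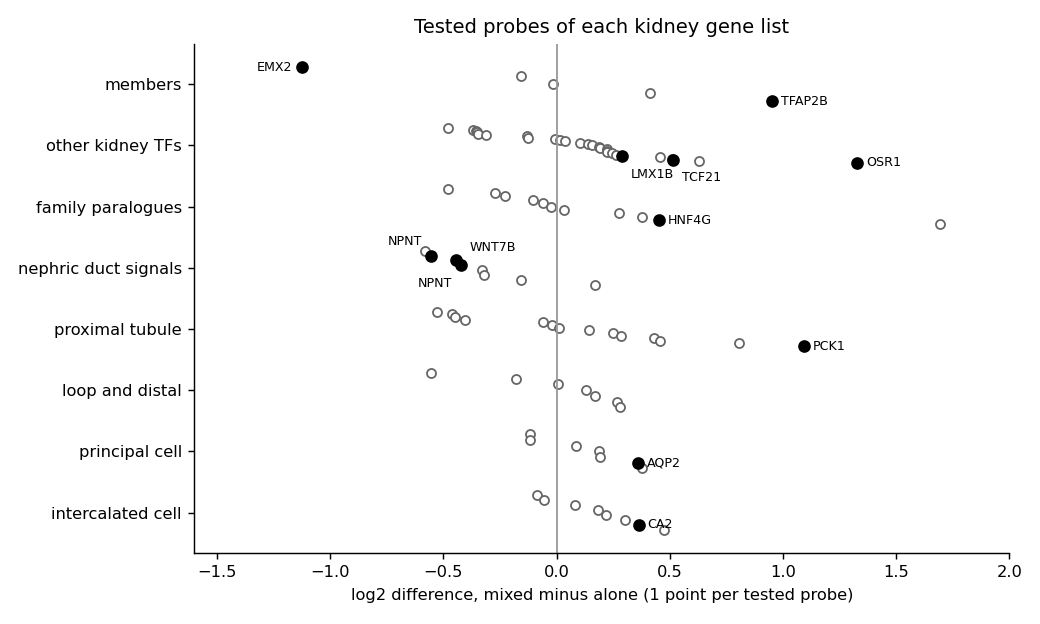
Log2 difference, mixed minus alone, of each tested probe of the members and of 7 kidney gene lists, 1 point per probe. Filled and named points were called over all 26535 tested probes; EMX2 has the lowest value shown and OSR1 the highest among called probes.

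Few paralogues of the members were detected throughout. Of 27 genes of the PAX, HNF4, EMX, LHX, GATA, AP-2 and FOXI families, 20 had a probe, 7 were detected on all 6 arrays and 8 on none. HNF4G was the 1 called probe of the 11 tested, against 11.2% of all tested probes, and the median difference of the list was -0.03. With spike-in scaling HNF4G was not called, and TFAP2C was the 1 called probe, lower in mixed culture. PAX6 was detected on all arrays at both probes (0.38 and 0.28, adjusted p = 0.0889 and 0.200), and GATA6 differed by -0.06 (adjusted p = 0.704). FOXI3 had the widest spread, with 41.6, 19.5 and 3.77 in RasV12 cells alone and 52.6, 40.9 and 41.9 in mixed culture at its tested probe (1.69, SE 0.81, adjusted p = 0.206).

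The calls for EMX2 and TFAP2B depended on single arrays. EMX2 kept its sign in all 13 alternatives that gave it a value and its call in 8. It was not called without alone replicate 2 (adjusted p = 0.0752), alone replicate 3 (0.0762) or mixed replicate 3 (0.0820), nor with no filter (0.0706) or with the methods' test (0.0574). TFAP2B kept its sign in all 14 alternatives, with values from 0.79 to 1.11, and its call in 8. It was not called without alone replicate 2 (adjusted p = 0.0708), alone replicate 3 (0.0881), mixed replicate 2 (0.0833) or mixed replicate 3 (0.0907), nor with no filter (0.0772) or with the methods' test (0.0669). Without any one of those 4 arrays, only 7 to 23 probes were called over the whole array, against 2975 in the main fit. With no filter 12 of 43603 probes were called, and with the methods' test 826 of 26535. In the 4 fits without such an array 0 probes of the other kidney transcription factors, of the duct and segment genes and of the paralogues were called either (limma). Of them 5 to 9, 12 to 15 and 2 to 3 had an unadjusted p under 0.05. Without alone replicate 1 there were 13, 18 and 4 calls among 28, 47 and 11 tested probes, while 7333 of all 27758 tested probes were called. With the replicate number as a block, EMX2 had an adjusted p of 0.0318 and TFAP2B of 0.0355.

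**Figure D5:**
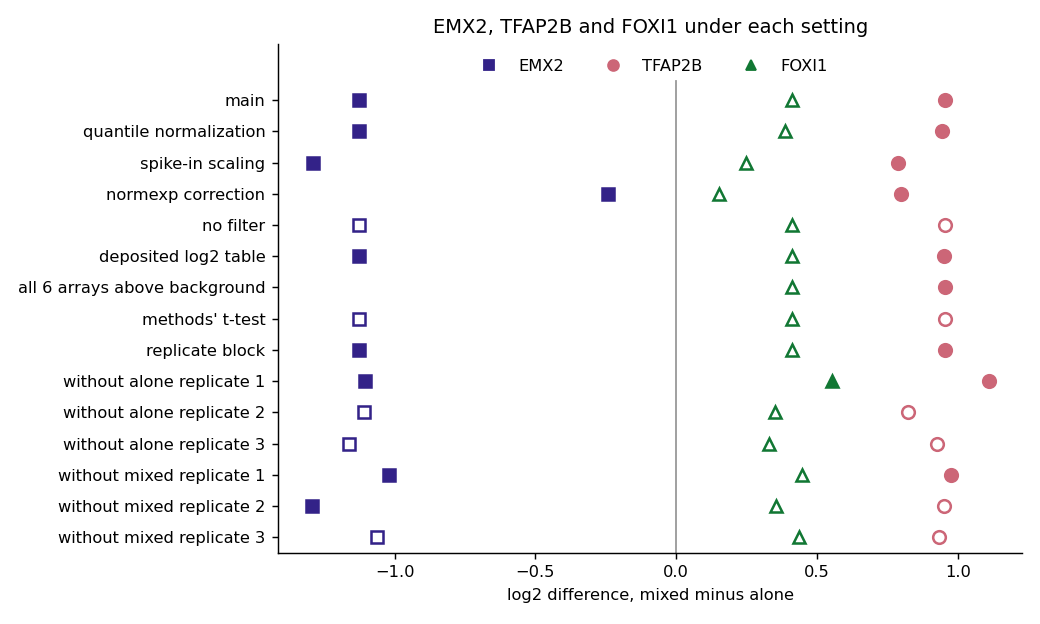
Log2 difference, mixed minus alone, of EMX2 (squares), TFAP2B (circles) and FOXI1 (triangles) under the main setting and each alternative, with filled points where the probe was called at an adjusted p under 0.05 (limma, or the methods' test where named). All points keep their side of 0, while the calls change with the arrays left out; EMX2 has no value where a probe had to be above background on all 6 arrays, and the 2-fold threshold is not shown because it leaves the differences as they are.

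Marker genes were read beside the members. All 6 epithelial genes with a probe were detected on all arrays, and 1 of their 12 probes was called, a probe of OCLN at 0.41. Over all tested probes 11.2% were called. A further 5 epithelial probes had an unadjusted p under 0.05, the other OCLN probe and both of TJP1 with positive differences (0.33, 0.28 and 0.28) and 2 of the 3 of CDH1 with negative ones (-0.36 and -0.37, adjusted p = 0.110 and 0.0650). Of endothelial, leukocyte, stromal and podocyte genes 0 of 15 tested probes were called (limma), with 1 at an unadjusted p under 0.05, and CDH5, PTPRC and PDGFRA were not well above background on any array. Of the 19 genes of these cell types, however, 10 were detected on all 6 arrays and 6 on none. Those detected included VWF (2607 to 4487) and CD68 (909 to 1061). PECAM1 and COL1A1 were detected too, but not at all of their probes. The summed levels of each of these 5 marker lists, in units of each array's 75th percentile, overlapped between the groups (endothelial 5.19 to 7.47 alone and 5.66 to 7.55 mixed, leukocyte 1.61 to 1.76 and 1.76 to 1.85). The summed level of 12 Ras-MAPK output genes with a probe, on the same scale, lay between 204 and 209 in the cells alone and between 169 and 191 in the mixed samples. The sum adds unlogged intensities, so it mainly follows the brightest probes, which read DUSP6. No DUSP6 probe was called (-0.34 to -0.19, adjusted p = 0.0607 to 0.206, limma). Of the 19 tested probes of the list 12 were negative and 7 positive, with 3 called lower (CCND1, FOSL1 and EREG) and 2 higher (both of EGR1). With the replicate block CCND1 was not called (adjusted p = 0.0638), and both probes of IER3 were called lower and SPRED1 higher. Part of MDCK cells without RasV12 in the sorted samples, or of a change in Ras output, in the differences of EMX2 and TFAP2B was not tested.

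For each member detected on all 6 arrays, the 2 named probes most alike to it were sought among 15745 by Pearson's correlation of the log2 values over the 6 arrays. These were SLC37A4 and ZBED5 for TFAP2B (r = 0.998 each), CREBBP and FNTB for FOXI1 (0.999 and 0.997), C32H4orf32 and TMEM9B for GATA3 (0.997 and 0.994), and FAM49A and SOGA1 for PAX8 probe 1 (0.983 each). The correlations describe 6 arrays in 2 groups on 2 slides. As many as 631 probes exceeded 0.95 with TFAP2B and 415 with FOXI1, whose groups do not overlap, against 125 with GATA3 and 16 with PAX8.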

How the data were processed

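Total RNA of 6 sorted samples was measured on 1-colour Agilent canine arrays, 1 array a sample. The authors deposited the scanner output of each array (Agilent Feature Extraction 10.10.1.1, per the file headers), with a processed intensity per spot, background-subtracted but left unscaled across arrays, and flags for spots well above background, saturated or outlying. A deposited table of log2 values equals the log2 processed intensity minus a constant within 0.00124 of each array's 75th percentile (592 to 700). The paper's methods name an unpaired two-tailed test and no normalization for the arrays.

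Control spots and the 6 to 12 flagged spots of an array were left out, the 43803 spots were averaged to 43603 probes, and each array's 75th percentile was subtracted on the log2 scale. The 26535 probes that passed the scanner's background flag throughout 1 group or both were tested with limma 3.58.1 in R 4.3.3 (lmFit, eBayes, two-sided, Benjamini-Hochberg over all tested probes, threshold 0.05). A single value was also given an exact permutation test over the arrays. The methods' t-test was an unpaired test of the same values, used as an alternative only. The procedure was tested on simulated data. Python 3.11.15 with numpy 2.4.6, pandas 2.3.3 and matplotlib 3.10.9 served for tables and plots.

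The members and gene lists were chosen with earlier results of these data known. All 8 members were named, and every probe of the other lists that was called. Genes whose detection describes a list were named too, as were the 2 probes most alike to each member detected on all arrays. Further genes of the lists (RET, MECOM, HOXB7, CUBN, CYP27B1, CDH1, TJP1, IER3, SPRED1, TFAP2C, PAX6, GATA6, FOXI3, SLC12A1, ATP6V1B1, ATP6V0A4) were named after their values were seen. Same-numbered arrays of the groups correlated, after removal of the group means, at 0.343, 0.160 and 0.292, all above 0.1. Alone replicate 2 and mixed replicate 3 correlated at 0.234, above the 0.160 of the arrays numbered 2. This check therefore does not settle whether the replicate numbers are a pairing. The main fit was unpaired, with the replicate block as an alternative. The number is also the position on the slide. Alternatives were the replicate block, quantile normalization, spike-in scaling (7 probes), normexp correction (offset 50), the deposited log2 table, no filter, a filter on all 6 arrays, a 2-fold threshold, the methods' test and leaving out each array. Slide was no block, as it coincides with group.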

Additional observations from a re-analysis of the deposited data

How the results depend on the processing

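The count of called members was 2 and stayed at 2 with quantile normalization, spike-in scaling, normexp correction, the replicate block and the deposited log2 table. It was 0 with no filter on dim probes (3 at an unadjusted p under 0.05, limma) and 1 with the filter for all 6 arrays (TFAP2B). It was 0 with the methods' test (2 at an unadjusted p under 0.05) and 1 with the 2-fold threshold (EMX2). Over the whole array, 12 of 43603 probes were called with no filter and 826 of 26535 with the methods' test. It ranged from 0 to 3 when single arrays were left out. The 3 other kidney transcription factor probes fell to 0 with spike-in scaling and with no filter, and to 1 with the methods' test and with the 2-fold threshold, and ranged from 0 to 13 without single arrays. The 6 called probes of the duct and segment genes fell to 0, 0, 1 and 1 under the same alternatives and ranged from 0 to 18. The 1 paralogue probe became 0 with no filter, with the methods' test and with the 2-fold threshold, 2 with the replicate block (HNF4G and TFAP2C), and ranged from 0 to 4. The sign of PAX8 probe 1 turned without alone replicate 2 (0.0099), mixed replicate 2 (0.0031) and mixed replicate 3 (0.0235), with a range of -0.0708 to 0.0235 over single arrays left out; the cause was not tested. Leaving out alone replicate 1 raised the count over all probes from 2975 to 7333. Signal over background limits what can be said of EMX2 in mixed culture and of FOXI1, HNF4A, LHX1 and PAX8 probe 2 throughout, and PAX2 was not analysed here.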
